A study of Mus musculus with 18 samples.

Results

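The genes of DNA replication and S phase, the stage of the cell cycle in which the genome is copied, were followed through 6 groups of cultured primary microglia, which are macrophages that live in the brain, from mice. The set held 36 genes of the 54532 in the count table, chosen by name. Of these, 14 act in the licensing and firing of replication origins, 12 at the replication fork, 4 in the synthesis of DNA precursors, and 6 in the chromatin and control of S phase. All 36 passed the filter on low counts. RNA sequencing counts came from 18 libraries, 3 per group. Microglia came from mouse pups of postnatal day 0 to 3 and were isolated after 10 days in a mixed culture. The mice were either Trem2+/+ or carried R47H, a variant of the microglial surface receptor TREM2 linked to Alzheimer's disease, on 1 allele (R47H/+; labelled mTrem2 +/+ and hTrem2 R47H/+). If the prefixes m and h stand for mouse and human, the genotypes differ in the variant and in the species of the gene. These cannot be told apart here. The design asks how R47H/+ cells differ at baseline and after tau, and what an Akt inhibitor does to both.

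Trem2+/+ cells without tau and Trem2+/+ cells with 0N4R tau fibrils at 1 ug per ml formed the first pair of groups, and R47H/+ cells without and with the same tau formed the second. In the third pair, R47H/+ cells without and with tau were treated first with MK-2206, which inhibits the kinase Akt, at 1 uM. All groups shared a pre-treatment of 6 h, with 0.01% DMSO as the vehicle in those that got no inhibitor (a DMSO share is not given for the MK-2206 groups), and no Trem2+/+ cells received MK-2206. The length of the exposure to tau is not given in the labels. Nor is it given whether the replicates of a group came from different cultures or animals. The p-values therefore speak of the spread of these libraries alone, and that spread may be technical. In bulk samples, fewer cells in S phase and less RNA per cell cannot be told apart.

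Before each round of division, the origin recognition complex (Orc1 and Orc6) binds DNA, and Cdc6 and Cdt1 load the ring-shaped MCM helicase made of Mcm2 to Mcm7. In S phase, Mcm10, Cdc45 and the GINS complex (Gins1 and Gins2) turn this ring into a moving helicase. The clamp PCNA, loaded by replication factor C, tethers the polymerases, while ribonucleotide reductase (Rrm1 and Rrm2), thymidylate synthase (Tyms) and thymidine kinase (Tk1) supply the building blocks. E2F factors, held back by the retinoblastoma protein until cyclin D kinases act, switch many of these genes on at the border of G1 and S phase. Microglia divide little in the healthy adult brain and more in neonatal culture and after injury.

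Promoter sequence is shown first, for 3 genes that held the letters of an E2F motif and 2 that did not, since E2F is the textbook regulator of the set. Windows from 250 bases before to 50 bases after each start site were taken from RefSeq on GRCm38.p6. They covered 31 of the 36 genes in 38 windows; Pole, Mcm4, Gins1, Gins2 and Rfc2 were not matched. The letters TTTCCCGC, TTTGGCGC, TTTCGCGC and TTTGCCGC were searched on both strands. At least 1 of them stood in 13 of the 31 genes (41.9%), or in 13 of the 38 windows (34.2%), against 744 of all 32851 windows (2.26%). Below, 5′ to 3′ along the gene's strand and ending before the first exon, capitals mark these letters, which overlap where the capital run is longer than 8 bases. Mcm5 is shown because its transcript changed in the most comparisons, Mcm6 because it held 3 matches and was called in none, and Uhrf1 for its large changes. Mcm10 and Rrm2, also with large changes, held none of the letters.
Mcm5, helicase subunit, chr8:75109259-75109508, plus strand: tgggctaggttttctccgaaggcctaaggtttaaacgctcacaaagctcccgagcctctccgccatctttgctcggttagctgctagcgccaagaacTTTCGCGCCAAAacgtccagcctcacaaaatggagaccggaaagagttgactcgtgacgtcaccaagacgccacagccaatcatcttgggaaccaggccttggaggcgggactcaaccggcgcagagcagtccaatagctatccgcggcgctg
Mcm6, helicase subunit, chr1:128359706-128359955, minus strand: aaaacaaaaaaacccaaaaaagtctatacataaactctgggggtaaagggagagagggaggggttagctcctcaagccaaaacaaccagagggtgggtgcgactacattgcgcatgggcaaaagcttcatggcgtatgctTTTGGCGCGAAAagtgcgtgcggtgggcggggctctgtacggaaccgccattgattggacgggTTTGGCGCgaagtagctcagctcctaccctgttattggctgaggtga
Uhrf1, methylation maintenance, second of 2 start sites, chr17:56304063-56304312, plus strand: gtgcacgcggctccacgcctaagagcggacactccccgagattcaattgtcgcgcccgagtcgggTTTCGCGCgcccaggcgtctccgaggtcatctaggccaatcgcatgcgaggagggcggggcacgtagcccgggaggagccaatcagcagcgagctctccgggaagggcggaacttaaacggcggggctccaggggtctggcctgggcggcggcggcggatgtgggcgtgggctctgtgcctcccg
Mcm10, helicase activation, chr2:5012792-5013041, minus strand: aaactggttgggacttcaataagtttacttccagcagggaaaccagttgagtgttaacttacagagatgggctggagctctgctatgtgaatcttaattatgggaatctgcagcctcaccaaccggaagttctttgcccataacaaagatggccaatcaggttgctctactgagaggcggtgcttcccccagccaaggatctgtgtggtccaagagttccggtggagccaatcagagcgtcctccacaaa
Rrm2, ribonucleotide reductase, chr12:24708004-24708240, plus strand: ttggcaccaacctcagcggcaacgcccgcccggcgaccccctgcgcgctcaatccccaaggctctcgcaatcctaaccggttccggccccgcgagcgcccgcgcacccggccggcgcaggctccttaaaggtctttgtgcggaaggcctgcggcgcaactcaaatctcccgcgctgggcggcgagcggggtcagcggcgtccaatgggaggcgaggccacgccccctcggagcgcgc
A match describes the letters and is not evidence of binding, and a window without them says nothing about E2F. CCAAT, searched likewise, stood in 57.9% of the 38 windows against 37.4% of all windows, and TTTGAA, a motif of late cell cycle genes, in 10.5% against 17.9%.

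The libraries held between 16288531 and 20686299 counts. A pair of libraries, Trem2+/+ replicate 3 and the second replicate of R47H/+ with tau, were shifted by gene length. Their log2 CPM, relative to the median of the 3 replicates of the group, fell with each 10-fold step in length. The slopes were -1.27 and -0.604, whereas those of all other libraries lay from -0.104 to 0.189. Counts of changed genes are therefore also given without both. Markers of microglia summed to 4473 to 4955 CPM in Trem2+/+ libraries, 4773 to 4857 with tau, 4898 to 4981 in R47H/+ libraries, 4529 to 4673 with tau, 4101 to 4279 with MK-2206 and 5087 to 5222 with both, with Csf1r at 1912 CPM in the mean of Trem2+/+ cells, while the homeostatic marker Tmem119 lay at 0.642 CPM. Of 10 astrocyte markers 6 passed the count filter, and their sum ran from 61.2 to 105.1 CPM in Trem2+/+ cells, 92.2 to 101.7 with tau, 66.3 to 69.9 in R47H/+ cells, 79.4 to 102.8 with tau, 54.2 to 70.8 with MK-2206 and 94.4 to 107.2 with both. Oligodendrocyte lineage markers ran from 219.7 to 259.8, 282.1 to 306.3, 242.0 to 244.8, 271.1 to 305.1, 224.3 to 234.8 and 284.2 to 287.9 CPM in the same order, so the oligodendrocyte list was higher with tau in each background and the astrocyte list in R47H/+ cells with and without MK-2206. Of 8 markers of monocytes, granulocytes and border macrophages 5 passed, with sums of 774.9 to 1328, 708.6 to 759.8, 652.0 to 720.5, 537.7 to 652.2, 734.6 to 746.4 and 569.6 to 622.9 CPM in that order, and S100a9 at 0 in every group. Neuron markers summed to at most 4.22 CPM, and fibroblast and vessel markers to at most 2.93. The part of these markers in the tau, genotype and MK-2206 results was not tested. Gjb6, an astrocyte marker, and Cldn5, a vessel marker, were at 0 in the mean of every group.

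Together the 36 replication genes took between 0.0564% and 0.0788% of the counts of a library. Their summed level over all 36 was 739.1 ± 89.4 CPM (SD, n = 3) in Trem2+/+ cells and 706.5 ± 27.9 with tau, 647.6 ± 9.14 in R47H/+ cells and 830.3 ± 54.9 with tau, and 588.7 ± 4.50 with MK-2206 and 615.3 ± 19.5 with both. Pcna took a large part of this sum and was highest in the length-shifted Trem2+/+ replicate 3 (840.0 CPM in sum, within the range of R47H/+ with tau), so the sum is also given over the 35 others. It was then 504.9 ± 10.5 CPM (SD, n = 3) in Trem2+/+ cells and 553.5 ± 24.4 with tau. In R47H/+ cells it was 495.8 ± 11.1 CPM, and with tau 630.6 ± 26.6, the highest of the 6 groups. With MK-2206 it was 472.1 ± 11.5 CPM, and with MK-2206 and tau 508.5 ± 23.1. By either sum the mean of the R47H/+ cells with tau was the highest. The order of the Trem2+/+ groups turned with Pcna: the tau mean was below the mean without tau with it and above without it. Means of R47H/+ and Trem2+/+ cells without tau differed by less than 1 SD only when Pcna was left out. R47H/+ with tau held the highest group mean for 23 of the 36 genes. MK-2206 alone held the lowest for 14, and MK-2206 with tau for 12. How often each group was highest or lowest over all genes tested was not counted.

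**Figure D1:**
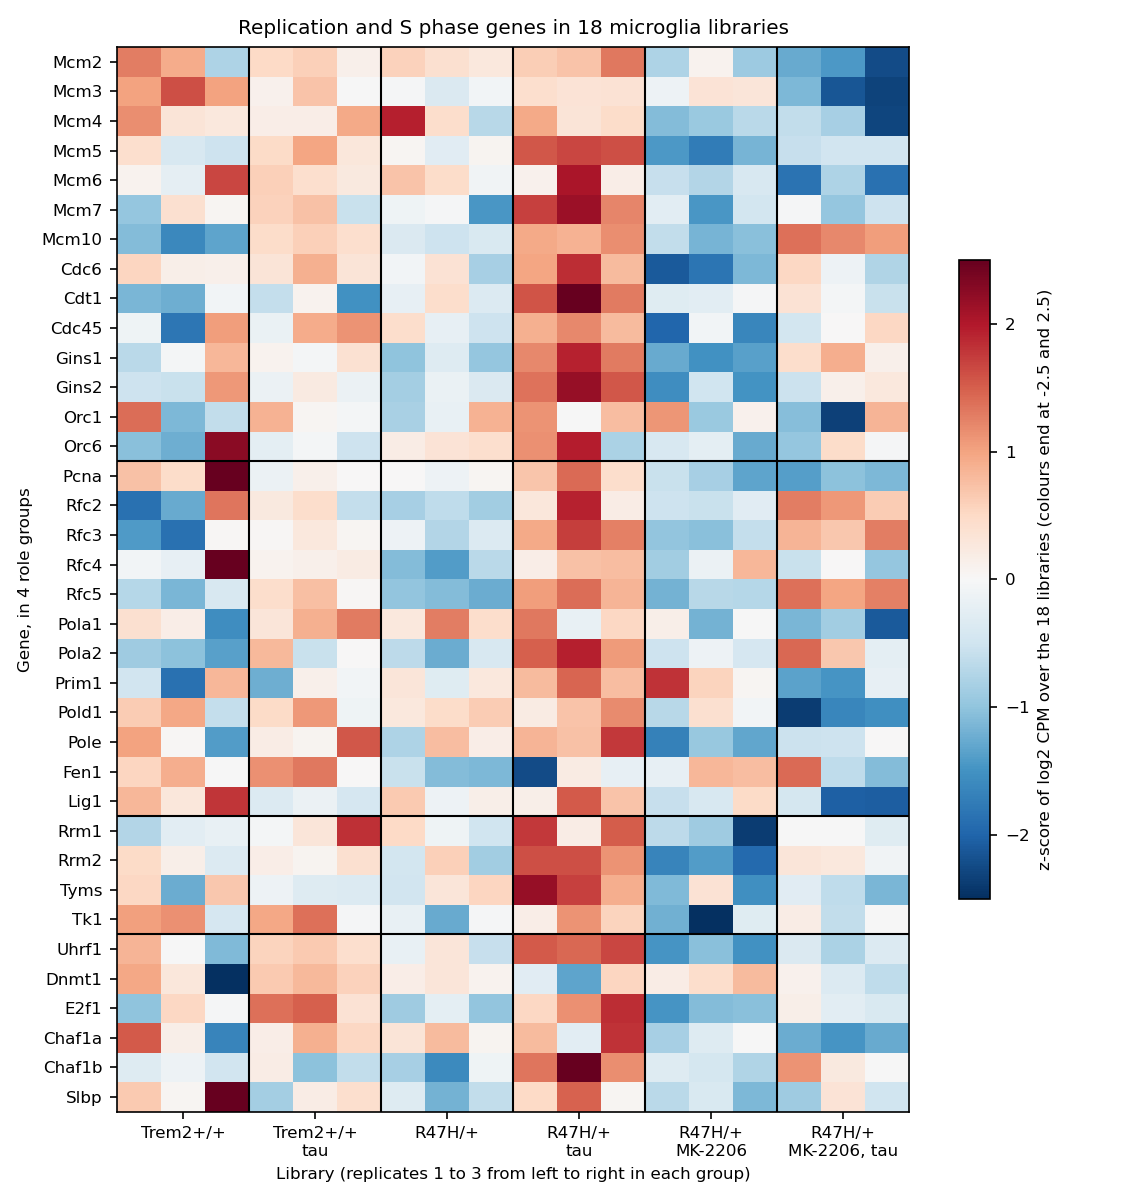
Standardised log2 CPM (z-score over the 18 libraries) of the 36 replication genes, in rows by role, in each library, in columns by group. R47H/+ with tau holds the highest group mean for 23 of the 36 genes, and the MK-2206 groups the lowest for 14 (without tau) and 12 (with tau). The same was not counted over all genes tested.

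Per base of transcript, Pcna was by far the most abundant, at a mean of 66.8 RPKM (CPM per kilobase of the deposited gene length) over the 18 libraries. Cdt1 (15.3 RPKM), Dnmt1 (12.8), E2f1 (8.39) and Rfc2 (7.73) followed. At the other end stood Orc1 (0.226 RPKM), Fen1 (0.174), Cdc6 (0.165) and Pole (0.118). The highest group mean was 11 times the lowest for Rrm2, 6.29 times for Cdc6, 6.21 for Uhrf1, 5.38 for Mcm10, 4.77 for Fen1 (144 counts in all), 4.59 for Gins1 and 4.16 for Mcm5, but 1.24 times for Dnmt1 and 1.28 for Mcm4. A test for any difference among the 6 groups (edgeR quasi-likelihood F-test, adjusted p under 0.05) called 22 of the 36 genes, against 42.5% of all 13267 genes tested. Of the 36, 16 were called in none of the 7 pairwise comparisons.

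Of the origin genes, Mcm10, which helps turn the loaded helicase into a moving one, followed tau in each background. It measured 2.60, 1.83 and 2.23 CPM in Trem2+/+ libraries and 7.32, 7.94 and 7.10 with tau. R47H/+ libraries held 4.22, 3.80 and 4.19 CPM, and 10.0, 9.47 and 11.5 with tau. With MK-2206 the values were 3.60, 2.48 and 2.69 CPM, and with MK-2206 and tau 13.3, 11.8 and 10.7. Every library with tau lay above every library without it, whatever the genotype or inhibitor. With tau, Mcm10 rose by a log2 change of 1.75 ± 0.17 (SE) in Trem2+/+ cells (adjusted p = 8.37e-07, edgeR), 1.34 ± 0.161 in R47H/+ cells (adjusted p = 9.89e-06) and 2.03 ± 0.166 under MK-2206 (adjusted p = 1.2e-07).

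Mcm5, a subunit of the helicase ring (chromosome 8, 75109569 to 75128439, GRCm38), gave another order. Its libraries held 11.5, 7.89 and 7.42 CPM in Trem2+/+ cells and 11.9, 15.01 and 10.8 with tau. In R47H/+ cells they held 9.72, 8.36 and 9.77 CPM, and 19.6, 20.7 and 20.1 with tau. MK-2206 gave 4.85, 4.16 and 5.49 CPM, and 7.27, 7.57 and 7.62 with tau. The R47H/+ libraries with tau were above all 15 others, and those with MK-2206 alone below all others. Gins1, a subunit of the GINS complex, was lower in level: 2.03, 2.84 and 4.52 CPM in Trem2+/+, 3.06, 2.85 and 3.58 with tau, 1.70, 2.46 and 1.73 in R47H/+ and 5.48, 7.92 and 5.77 with tau. With MK-2206 it measured 1.48, 1.30 and 1.40 CPM, and with MK-2206 and tau 3.66, 4.71 and 3.11. Trem2+/+ ranges with and without tau overlapped for Gins1, while R47H/+ ranges did not, with or without the inhibitor.

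Within the helicase ring the 6 subunits differed in their calls. Mcm4 and Mcm6 were called in no pairwise comparison, with group means of 13.2 to 16.9 and 27.7 to 37.9 CPM. Yet with tau, both had MK-2206 ranges wholly below those without it, as 14.1% of all genes did. Mcm4 held 11.4 to 14.3 against 16.2 to 17.6 CPM, and Mcm6 26.3 to 30.5 against 34.4 to 44.7. The ranges of Mcm2, Mcm3, Mcm5 and Mcm7 were apart in the same direction. The test for any difference among groups called Mcm6 (adjusted p = 0.0465, edgeR) but not Mcm4. Mcm6 was called for MK-2206 with tau without both length-shifted libraries (adjusted p = 0.0182). Mcm2 and Mcm3 were lowest in R47H/+ cells with MK-2206 and tau (9.65 ± 1.22 and 20.6 ± 2.09 CPM), and Mcm7 was highest in R47H/+ with tau (17.1 ± 1.41 CPM, against 11.5 ± 1.6 without). The loading factor Cdt1 stood at 61.3 ± 5.77 CPM in R47H/+ with tau and between 42.6 and 47.3 in the means of the other groups. Cdc6, the other loading factor, had few counts (282 over the 18 libraries) and group means from 0.250 to 1.57 CPM. Gins2 was highest in R47H/+ with tau at 8.46 ± 1.10 CPM, but 67.3% of its exon length overlaps any gene on the opposite strand, with Gse1 as the largest overlap. Whether the counting used strand is not given in the sources used here. Cdc45, Orc1 and Orc6 were called in no comparison. Exons of 14 of the 36 genes overlap those of another gene, over 10% of the length in 8. Among them are Mcm7 (12.6%) and Rfc5 (10.7%). These shares count any other gene, and the largest overlaps were with Ap4m1 and Wsb2.

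**Figure D2:**
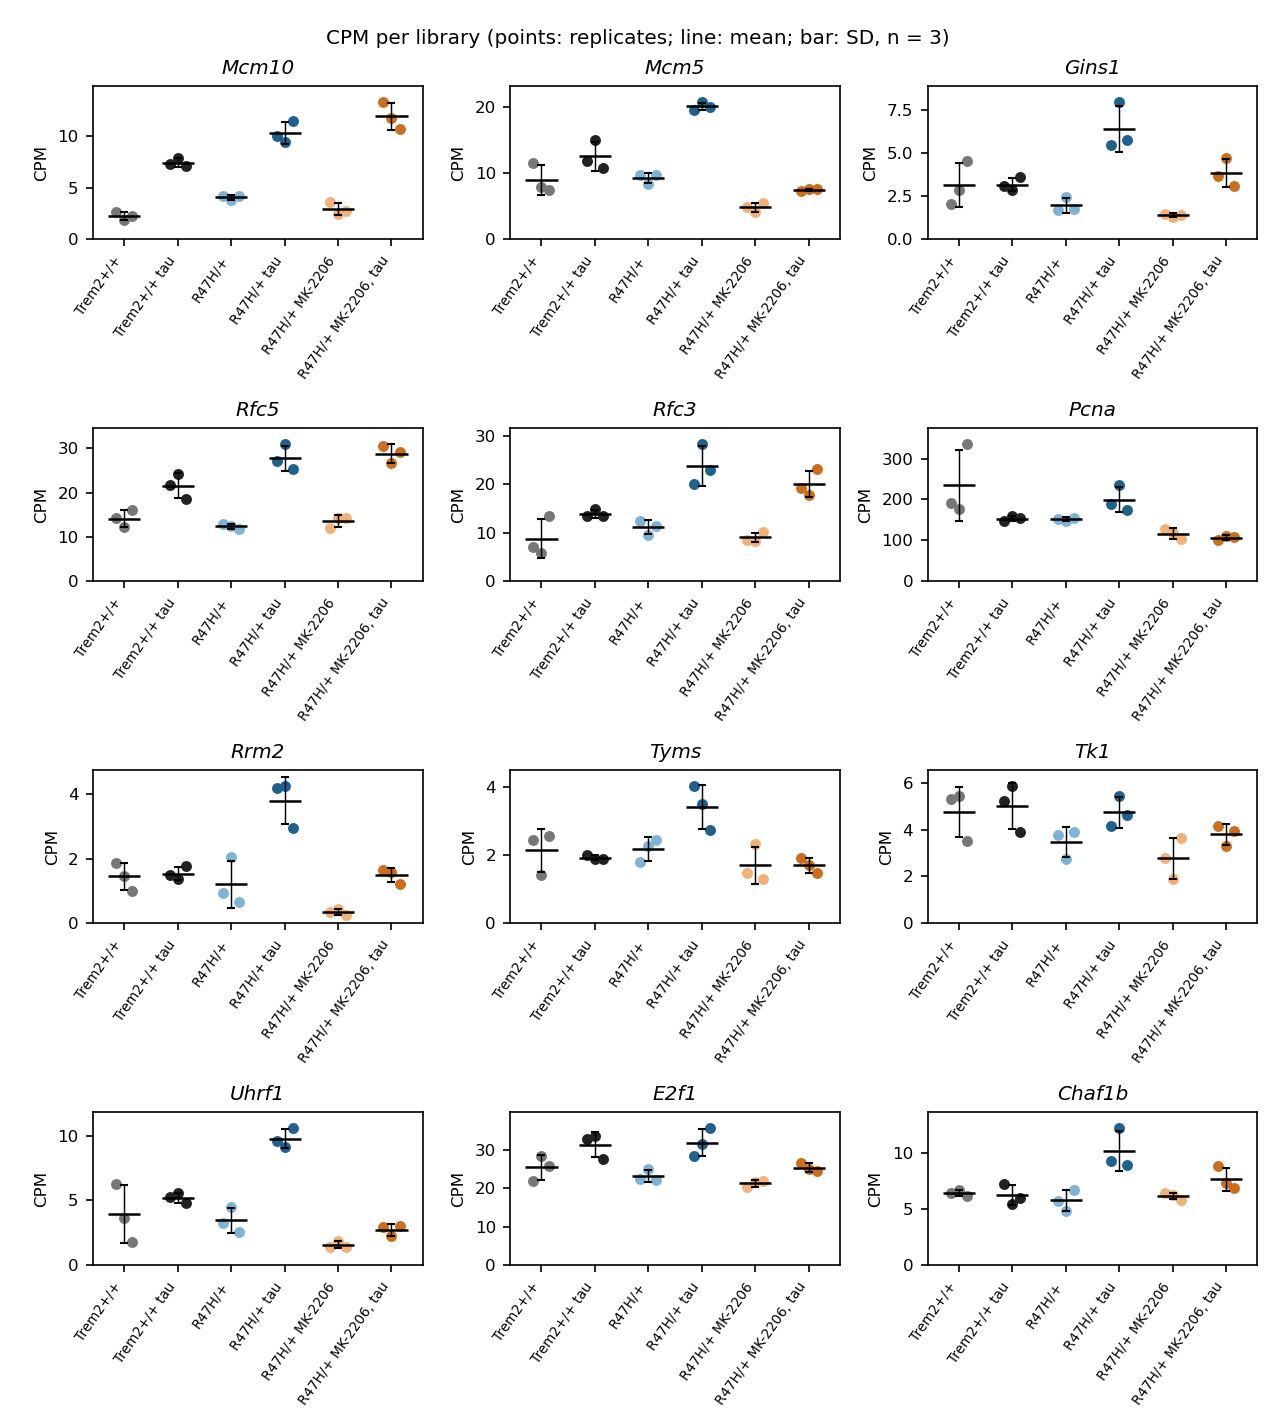
CPM in each of the 18 libraries for the 12 genes given in full, 3 per role; points are libraries, horizontal lines group means and error bars SD. Mcm10 and Rfc5 are high in all groups with tau, whereas Mcm5, Uhrf1 and Rrm2 have their highest mean in R47H/+ with tau and their lowest with MK-2206 alone.

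At the fork, the clamp loader subunits Rfc5 and Rfc3 were high wherever tau was given. Rfc5 measured 14.2, 12.2 and 16 CPM in Trem2+/+ and 21.8, 24.3 and 18.6 with tau. It measured 12.9, 12.4 and 11.7 CPM in R47H/+ and 27.1, 30.9 and 25.3 with tau, then 11.99, 14.4 and 14.2 with MK-2206 and 30.6, 26.6 and 29.3 with both. All 9 libraries with tau lay above all 9 without. Rfc3 ran at 7.07, 5.78 and 13.4 CPM in Trem2+/+, 13.3, 14.9 and 13.5 with tau, 12.5, 9.59 and 11.3 in R47H/+ and 20.0, 28.2 and 22.9 with tau. With MK-2206 it gave 8.56, 8.32 and 10.2 CPM, and with tau as well 19.2, 17.8 and 23.1. R47H/+ libraries with tau were above those without, with and without the inhibitor, while in Trem2+/+ replicate 3 without tau reached the level of the tau libraries. The other loader subunits were called nowhere: Rfc2 had group means from 40.4 to 59.0 CPM and Rfc4 from 2.18 to 3.91.

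Pcna, the sliding clamp, differed most in 1 library. Its values were 191.9, 176.1 and 334.6 CPM in Trem2+/+, where the third is a library with the length shift, and 146.6, 158.8 and 153.7 with tau. R47H/+ libraries held 153.3, 146.9 and 155.2 CPM, and 189.4, 235.2 and 174.7 with tau. MK-2206 gave 128.8, 119.0 and 102.0 CPM, and with tau 100.5, 111.5 and 108.5. All 6 libraries with MK-2206 lay below the 12 without it.

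Among the polymerases, Pola2, a subunit of the polymerase alpha and primase complex, was highest in R47H/+ with tau at 22.1 ± 1.34 CPM, against 16.1 ± 0.966 without. Pold1, the catalytic subunit of the lagging-strand polymerase, lay between 19.6 and 22.1 CPM in the means of 5 groups and at 15.2 ± 1.02 with MK-2206 and tau. Lig1, which joins Okazaki fragments, was also lowest there, at 10.4 ± 1.62 CPM against 12.5 to 15.4 elsewhere. Pola1, Prim1, Pole and Fen1 were not called in any comparison. Fen1, the flap nuclease, had 144 counts over all libraries, and 84.2% of its exon length is shared with any other gene, with Gm10143 as the largest overlap.

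Of the genes for DNA precursors, Rrm2, the S phase subunit of ribonucleotide reductase, varied most. It measured 1.87, 1.47 and 1.01 CPM in Trem2+/+ and 1.48, 1.37 and 1.76 with tau, and 0.926, 2.05 and 0.670 in R47H/+. R47H/+ with tau gave 4.199, 4.25 and 2.97 CPM, MK-2206 alone 0.343, 0.432 and 0.259, and MK-2206 with tau 1.65, 1.59 and 1.23. These levels rest on few reads: 195 counts in the 3 libraries of R47H/+ with tau and 19 in those with MK-2206 alone, the groups with the highest and the lowest level. Tyms gave 2.44, 1.42 and 2.56 CPM in Trem2+/+, 2.01, 1.88 and 1.88 with tau, 1.80, 2.28 and 2.46 in R47H/+, 4.02, 3.50 and 2.74 with tau, 1.48, 2.32 and 1.30 with MK-2206 and 1.91, 1.72 and 1.47 with both. The R47H/+ libraries with tau were the 3 highest of the 18. Tk1 gave 5.30, 5.46 and 3.51 CPM in Trem2+/+, 5.21, 5.85 and 3.92 with tau, 3.75, 2.75 and 3.91 in R47H/+ and 4.14, 5.45 and 4.63 with tau. With MK-2206 it gave 2.80, 1.89 and 3.63 CPM, and 4.17, 3.31 and 3.93 with both. Tk1 was called in no comparison, and neither was Rrm1, the large reductase subunit, whose group means ran from 21.5 to 28.6 CPM.

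Uhrf1, which guides the copying of DNA methylation behind the fork, measured 6.29, 3.67 and 1.82 CPM in Trem2+/+ and 5.26, 5.60 and 4.83 with tau. R47H/+ libraries held 3.29, 4.50 and 2.57 CPM, and 9.62, 9.13 and 10.6 with tau. MK-2206 libraries held 1.43, 1.89 and 1.40 CPM, and 2.94, 2.23 and 2.99 with tau. The R47H/+ libraries with tau were the 3 highest of the 18, and the spread in untreated Trem2+/+ cells was wide. Its partner Dnmt1, the maintenance methyltransferase, was called nowhere (group means 85.8 to 106.6 CPM). E2f1, the S phase transcription factor, gave 22.0, 28.5 and 25.98 CPM in Trem2+/+, 32.9, 33.6 and 27.7 with tau, 22.5, 25.1 and 22.1 in R47H/+, 28.5, 31.7 and 35.7 with tau, 20.3, 21.7 and 21.9 with MK-2206 and 26.8, 24.99 and 24.5 with both. R47H/+ and MK-2206 libraries without tau lay below their tau partners without overlap, while in Trem2+/+ cells the ranges overlapped. Chaf1b, a subunit of the chromatin assembly factor that places histones on new DNA, gave 6.44, 6.74 and 6.21 CPM in Trem2+/+, 7.22, 5.496 and 6.02 with tau, 5.76, 4.85 and 6.76 in R47H/+ and 9.31, 12.2 and 8.97 with tau. With MK-2206 it gave 6.45, 6.27 and 5.86 CPM, and 8.87, 7.31 and 6.92 with both. Ranges with and without tau were apart in R47H/+ cells, with the inhibitor as without it, and overlapped in Trem2+/+ cells. Chaf1a, the large subunit, and Slbp, which binds histone transcripts, were called in no pairwise comparison.

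In Trem2+/+ cells, tau raised Mcm10 3.36-fold and Rfc5, Rfc3 and Mcm5 by less, and Pcna fell. Of the 36 genes 4 rose, against 14.4% of all genes tested, and 1 fell, against 12.1%. The rises were in Mcm10 (log2 change of 1.75), Rfc3 (0.68 ± 0.238, adjusted p = 0.0439, edgeR), Rfc5 (0.61 ± 0.133, adjusted p = 0.0025) and Mcm5 (0.49 ± 0.167, adjusted p = 0.0408). The median of the 36 was 0.09, against -0.04 for all genes tested, and 24 were positive. Ranges did not overlap, with tau higher, for 4 genes (background 20.1%) and, with tau lower, for 3 (16%). Pcna fell by 0.61 on the log2 scale (adjusted p = 0.0241), but without Trem2+/+ replicate 3 its change was -0.30 (adjusted p = 0.0609). Without both length-shifted libraries 7 of the 36 were called in either direction, against 42.4% of all genes. Without tau replicate 1, or without tau replicate 2, 2 of the 36 were called; these calls ended without single libraries (adjusted p = 0.0563 to 0.195): Mcm5 without Trem2+/+ replicate 2 or 3 or tau replicate 1 or 2, Pcna without Trem2+/+ replicate 3 or any tau replicate, and Rfc3 without Trem2+/+ replicate 1 or 2 or any tau replicate. The change of Rfc3 was 1.09 without Trem2+/+ replicate 3 (adjusted p = 6.07e-05) and 0.44 without replicate 2 (adjusted p = 0.161). Rfc5 was not called when the compared groups were fitted alone. Over all 13267 genes, calls fell from 3519 to 1284 in that fit, and to 2683 and 2627 without tau replicates 1 and 2.

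In R47H/+ cells, tau raised genes of all 4 roles. Of the 36 genes 14 rose, 7 of 14 origin genes, 3 of 12 fork genes, 1 of 4 precursor genes and 3 of 6 chromatin and control genes, against 15% of all genes tested. None fell by edgeR, against 12.6%; 0 were lower at an unadjusted p under 0.05, and 0 by DESeq2. The rises were largest for Gins1 (1.71 ± 0.266, adjusted p = 0.00014, edgeR), Rrm2 (1.65 ± 0.333, adjusted p = 0.00136), Uhrf1 (1.50 ± 0.305, adjusted p = 0.00144) and Mcm10 (1.34). Rfc5 (1.17 ± 0.134, adjusted p = 6.27e-06), Mcm5 (1.11 ± 0.167, adjusted p = 9.6e-05), Rfc3 (1.09 ± 0.235, adjusted p = 0.00236) and Cdc6 (1.16 ± 0.361, adjusted p = 0.0243) followed. Smaller rises were those of Gins2 (0.92), Chaf1b (0.81), Mcm7 (0.57), E2f1 (0.46), Pola2 (0.46) and Cdt1 (0.37). The median was 0.46, against -6.13e-05 for all genes, with quartiles of 0.19 and 0.84; 33 of 36 were positive, and 24 had a tau range wholly above the range without tau, against 24.9% of all genes. Without both length-shifted libraries 17 of the 36 were called, all higher with tau. Of all 13267 genes, 3080 were then higher and 2655 lower (43.2% in either direction). Leaving out 1 library ended the calls of Mcm7 (without R47H/+ replicate 3, adjusted p = 0.0503), Cdc6 and Cdt1 (adjusted p = 0.0609 to 0.138 without R47H/+ replicate 1 or 3 or tau replicate 2).

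**Figure D3:**
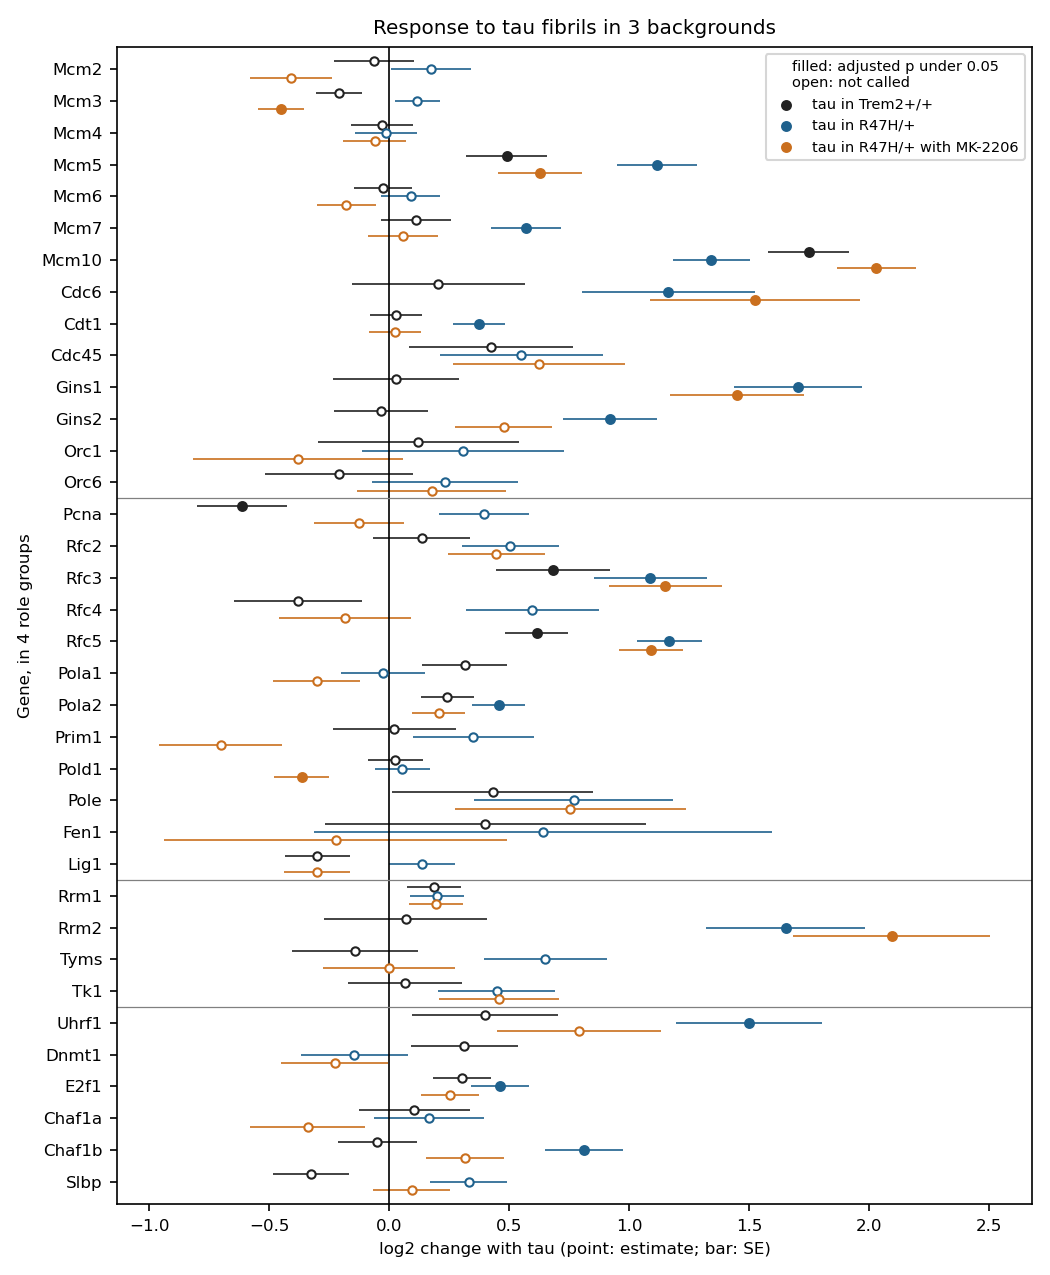
Log2 change with tau (point: estimate; bar: SE) of each of the 36 genes in Trem2+/+ cells, R47H/+ cells and R47H/+ cells with MK-2206; filled points have an adjusted p under 0.05. Mcm10, Mcm5, Rfc3 and Rfc5 are filled and to the right in all 3 backgrounds, Gins1, Rrm2 and Cdc6 in both R47H/+ backgrounds.

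Genotype alone moved few of these genes. Without tau, Mcm10 was 1.84-fold higher in R47H/+ than in Trem2+/+ cells (log2 0.88 ± 0.174, adjusted p = 0.00233, edgeR), and Mcm3 (-0.31 ± 0.0951, adjusted p = 0.0405) and Pcna (-0.63 ± 0.188, adjusted p = 0.0342) were lower. That is 1 higher of 36, against 8.22% of all genes tested, and 2 lower, against 6.83%. The median was -0.05, against -0.02 for all genes. Ranges did not overlap for 1 gene with R47H/+ higher (background 17.4%) and 5 with it lower (14%). Pcna's difference was -0.30 without Trem2+/+ replicate 3 (adjusted p = 0.083). The calls of Pcna and Mcm3 were also lost without any 1 of the R47H/+ libraries, which leaves 1 call. That of Mcm3 was lost without Trem2+/+ replicate 2 as well (adjusted p = 0.083 to 0.124 for both genes). There were 6 calls without Trem2+/+ replicate 1. Without both length-shifted libraries 5 were called in either direction, against 29.6% of all genes. Fitting the compared groups alone left 0 of the 36. Over all 13267 genes it left 466 calls, against 1997 in the full model. Without Trem2+/+ replicate 1 there were 3013 such calls, and without R47H/+ replicates 1, 2 and 3 there were 1328, 1301 and 1377. Of the 36, 7 had an unadjusted p under 0.05 in the full model (the share of all genes was not counted), and DESeq2 called 5.

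With tau, 7 genes were higher in R47H/+ than in Trem2+/+ cells, against 5.25% of all genes tested, and 0 were lower, against 4.24%, by edgeR (0 also at an unadjusted p under 0.05 and by DESeq2, which called 11 higher). Rrm2 differed most, at 2.47-fold (log2 1.30 ± 0.324, adjusted p = 0.0174), followed by Gins1 (1.01 ± 0.254, adjusted p = 0.0183), Rfc3 (0.77 ± 0.232, adjusted p = 0.0485), Gins2 (0.74 ± 0.194, adjusted p = 0.0246), Chaf1b (0.70 ± 0.163, adjusted p = 0.0114), Mcm5 (0.68 ± 0.165, adjusted p = 0.0153) and Cdt1 (0.50 ± 0.109, adjusted p = 0.00803). The median of the 36 was 0.27, against -0.00212 for all genes, with 32 positive. Ranges did not overlap for 17 genes with R47H/+ higher (background 16.8%) and 1 with it lower (16.9%). All 7 also rose with tau in R47H/+ cells, a comparison that shares the R47H/+ libraries with tau. Without both length-shifted libraries 11 were called, all higher in R47H/+ cells. Of all 13267 genes, 1755 were then higher and 1386 lower (23.7% in either direction). The count moved with single libraries: 1 was called without R47H/+ with tau replicate 2, 2 without Trem2+/+ with tau replicate 1 or 2, and 4 without its replicate 3. Over all 13267 genes, calls fell from 1260 to 792, 650, 786 and 923 without these single libraries, in the order named. Cdt1 was called without each library in turn, but not without the count filter or with the compared groups fitted alone. The other 6 were each lost without at least 2 libraries (adjusted p = 0.0505 to 0.192). Of those, Gins2 alone was also lost without the count filter, and none with the groups fitted alone.

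The interaction term asks whether the response to tau differed between the genotypes. It was called for 3 of the 36 genes, all with the larger value in R47H/+ cells, against 2.05% of all genes tested, and for 0 in the other direction by edgeR, against 3.32%, as by DESeq2 and at an unadjusted p under 0.05. Gins1 changed by 0.03 with tau in Trem2+/+ cells and 1.71 in R47H/+ cells (difference 1.68 ± 0.373, adjusted p = 0.0131, edgeR). Pcna changed by -0.61 and 0.40 (difference 1.01 ± 0.266, adjusted p = 0.0356), and Chaf1b by -0.05 and 0.81 (difference 0.86 ± 0.232, adjusted p = 0.0403). The interaction was positive for 33 of 36 genes, with a median of 0.36 against -0.01 for all genes. At an unadjusted p under 0.05 there were 15 of 36, but the share of all genes there was not counted. Gins2 (0.96, adjusted p = 0.058) and Rrm2 (1.58, adjusted p = 0.0672) were next to the threshold of the adjusted p. Without both length-shifted libraries, 7 of the 36 were called, all positive. Of all 13267 genes, 690 were then called positive and 861 negative (11.7% in either direction). The 7 were the 3 above with Mcm5 (0.75, adjusted p = 0.0264), Rrm2 (1.72, adjusted p = 0.0189), Uhrf1 (1.51, adjusted p = 0.00174) and Mcm3 (0.39, adjusted p = 0.0461), while Pcna's difference was 0.57. Without Trem2+/+ replicate 3 alone the Pcna difference was 0.70 (adjusted p = 0.00763). Gins1 was called without each library in turn, while Pcna and Chaf1b were lost in turn without 7 and 6 libraries (adjusted p = 0.0538 to 0.115). Counts fell to 1 without Trem2+/+ with tau replicate 2 or 3, R47H/+ replicate 1 or R47H/+ with tau replicate 2, rose to 5 and 6 without Trem2+/+ replicates 2 and 3, and fell to 0 when the compared groups were fitted alone. Over all 13267 genes, calls went from 713 to 487, 569, 502 and 518 in the fits that left 1. They rose to 1051 without Trem2+/+ replicate 2 or 3 and fell to 352 with the groups alone.

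MK-2206 lowered part of the set in R47H/+ cells. Without tau, Mcm5 was 1.92-fold lower (log2 -0.94 ± 0.174, adjusted p = 0.00749, edgeR) and Rrm2 3.46-fold lower (-1.79 ± 0.418, adjusted p = 0.0303). These are 2 of 36, against 1.36% of all genes tested, while 0 rose by edgeR, against 1.19%, as by DESeq2 and at an unadjusted p under 0.05. The median of the 36 was -0.24, against -0.01 for all genes, with 10 positive. MK-2206 ranges lay wholly below for 15 genes (background 16.6%) and wholly above for 2 (16%). No gene was called without MK-2206 replicate 2 (7 of 36 had an unadjusted p under 0.05 and 3 were called by DESeq2 with all libraries), where Mcm5 gave -0.84 (adjusted p = 0.0548), and 1 without MK-2206 replicate 1 or 3 or R47H/+ replicate 1 or 2, where Rrm2 was lost (adjusted p = 0.0531 to 0.175). Over all 13267 genes, calls fell from 338 to between 141 and 199 without 1 of these libraries. Removing both length-shifted libraries gave 5 calls, all lower. Of all 13267 genes, 934 were then higher and 959 lower (14.3% in either direction).

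With tau, 11 of the 36 genes were lower with MK-2206 than without it, against 1.4% of all genes tested, and 0 were higher by edgeR, against 1.64%, as by DESeq2 and at an unadjusted p under 0.05. They were the helicase genes Mcm2, Mcm3, Mcm5 and Mcm7, Gins2, the fork genes Pcna, Pold1 and Lig1, the precursor genes Rrm2 and Tyms, and Uhrf1. Uhrf1 fell by 1.84 ± 0.312 on the log2 scale (3.58-fold lower, adjusted p = 0.00406, edgeR) and Mcm5 by 1.43 ± 0.17 (2.69-fold lower, adjusted p = 0.000177). Rrm2 (-1.35 ± 0.327, adjusted p = 0.0381), Tyms (-1.005 ± 0.262, adjusted p = 0.0499), Mcm2 (-0.92 ± 0.171, adjusted p = 0.0081) and Pcna (-0.90 ± 0.189, adjusted p = 0.0163) followed. Gins2 (-0.75), Mcm7 (-0.57), Pold1 (-0.54), Lig1 (-0.53) and Mcm3 (-0.49) changed less. The median was -0.49, against -0.00556 for all genes; 5 of 36 were positive. The ranges lay wholly below those of R47H/+ with tau for 25 genes, against 14.1% of all genes, and wholly above for 0, against 13.7%. Mcm10 (0.21), Rfc5 (0.05) and Rfc2 (0.04), all high in both groups, were not called.

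The count of 11 fell when any 1 library was left out: to 6, 4 and 6 without R47H/+ with tau replicates 1, 2 and 3, and to 5, 3 and 2 without the 3 libraries with MK-2206 and tau in turn. Calls over all 13267 genes fell too, from 403 to 255, 182 and 229, and to 153, 167 and 152, in the same order. Mcm5 and Uhrf1 kept their calls without each library in turn and under all other settings run. The other 9 lost them without at least 1 library (adjusted p = 0.0538 to 0.22), Mcm2 without MK-2206 with tau replicate 3 alone (-0.82, adjusted p = 0.0549). Without both length-shifted libraries 16 of the 36 were called, all lower. Of all 13267 genes, 913 were then higher and 723 lower (12.3% in either direction).

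**Figure D4:**
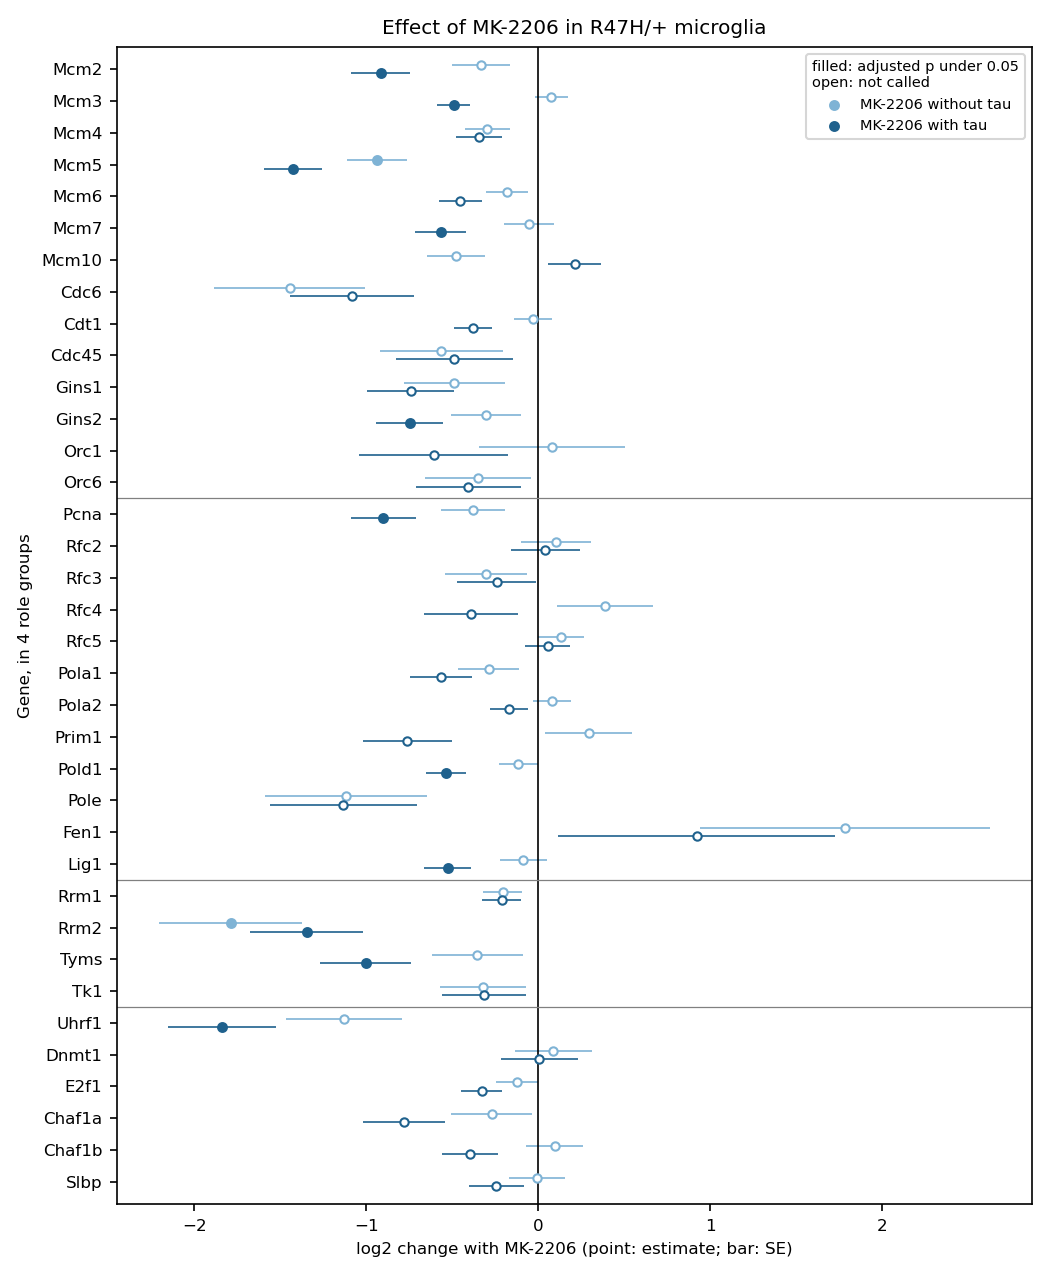
Log2 change with MK-2206 (point: estimate; bar: SE) of each of the 36 genes in R47H/+ cells without and with tau; filled points have an adjusted p under 0.05. With tau, 11 genes are filled, all to the left, and without tau Mcm5 and Rrm2.

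Compared with MK-2206 alone, 7 of the 36 genes rose with tau, against 14.3% of all genes tested, and 2 fell, against 11.3%, counts near the share among all genes. Those that rose were Rrm2 (2.10 ± 0.411, adjusted p = 0.00104, edgeR), Mcm10 (2.03), Cdc6 (1.53 ± 0.438, adjusted p = 0.0159), Gins1 (1.45 ± 0.28, adjusted p = 0.00089), Rfc3 (1.15 ± 0.237, adjusted p = 0.00157), Rfc5 (1.09 ± 0.134, adjusted p = 1.06e-05) and Mcm5 (0.63 ± 0.175, adjusted p = 0.0134). All 7 were among the 14 that rose in R47H/+ cells without the inhibitor, from other libraries. Mcm3 fell by 0.45 ± 0.0958 (adjusted p = 0.00199) and Pold1 by 0.36 ± 0.115 (adjusted p = 0.0265). The median was 0.13, against -0.03 for all genes; tau ranges lay wholly above for 13 genes (background 27.1%) and wholly below for 7 (28.5%). Leaving out 1 library ended the calls of Mcm5 (without MK-2206 replicate 2, adjusted p = 0.0681), Cdc6 (without MK-2206 replicate 1 or 2 or MK-2206 with tau replicate 1, adjusted p = 0.0609 to 0.0979) and Pold1 (without MK-2206 replicate 2 or 3 or MK-2206 with tau replicate 1 or 2, adjusted p = 0.0547 to 0.113). Of the 36, 17 were called in either direction without both length-shifted libraries, against 48.2% of all genes.

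Whether MK-2206 altered the response to tau was tested as an interaction in R47H/+ cells. None of the 36 genes was called by edgeR, against 0.377% of all genes tested. An unadjusted p under 0.05 was found for 9 (the share of all genes was not counted), and DESeq2 called 1. The smallest p belonged to Mcm3, which changed by 0.12 with tau alone and -0.45 under MK-2206 (difference -0.57 ± 0.135, adjusted p = 0.099). For Mcm5 the tau response was 1.11 and 0.63 (difference -0.49, adjusted p = 0.646), for Uhrf1 1.50 and 0.79 (-0.71, adjusted p = 0.808) and for Rrm2 1.65 and 2.10 (0.44, adjusted p = 0.911). The difference was positive for 6 of 36, with a median of -0.27 against 0.00556 for all genes. Without both length-shifted libraries 2 genes were called, Mcm2 and Mcm3, both with a negative difference. Of all 13267 genes, 409 were then called positive and 278 negative (5.18% in either direction).

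**Figure D5:**
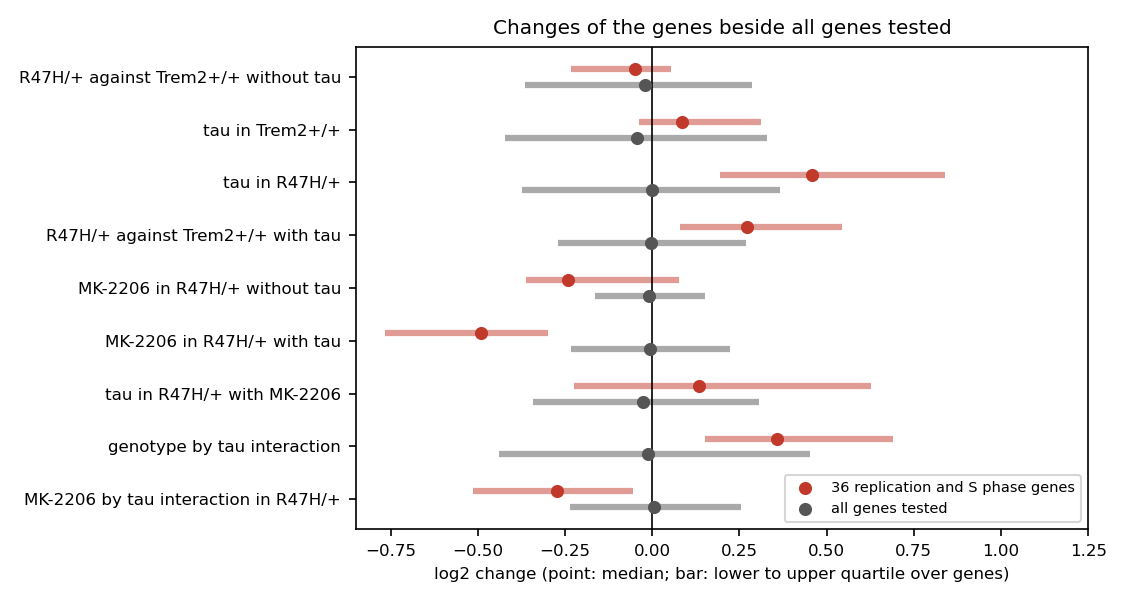
Median log2 change (point) and quartiles (bar) of the 36 replication genes beside those of all genes tested, in each of the 9 comparisons. The replication genes sit to the right for tau in R47H/+ cells (median 0.46) and to the left for MK-2206 with tau (-0.49), while the medians of all genes stay near 0.

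Promoter letters were set beside these calls as a description. Of the 14 genes that rose with tau in R47H/+ cells, 12 had a window and 6 of these held an E2F letter string (50%), against 7 of 19 among the rest (36.8%). Of the 11 lower with MK-2206 under tau, 6 of 10 with a window held one (60%), Mcm5 and Uhrf1 among them, against 7 of 21 (33.3%). Rrm2, called in both, had none in its window.

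Other genes of the pathway were counted from lists of their own. Of 38 further replication genes tested, 4 rose and 1 fell with tau in R47H/+ cells (against 15% and 12.6% of all genes tested), and 7 rose and 1 fell in Trem2+/+ cells (against 14.4% and 12.1%). Each of these shares was below that of all genes, except for the 7 rises in Trem2+/+ cells. With tau, 0 of the 38 were called between R47H/+ and Trem2+/+ cells by edgeR (median 0.21; 4 higher and 0 lower at an unadjusted p under 0.05, 2 higher by DESeq2). None was called with MK-2206 by edgeR, with tau (median -0.19; 6 lower and 0 higher at an unadjusted p under 0.05, 1 lower by DESeq2) or without it (3 lower and 0 higher, 0 by DESeq2). The interaction of genotype and tau was called for 3 of the 38, all with the smaller value in R47H/+ cells (against 3.32% of all genes), and for 0 in the other direction by edgeR (3 at an unadjusted p under 0.05, 1 by DESeq2), with a median of 0.00268. They were Rfc1, the large clamp loader subunit (-0.64, adjusted p = 0.0109, edgeR), Dna2, a nuclease and helicase (-0.83, adjusted p = 0.0248), and Timeless (-1.27, adjusted p = 0.0343), opposite in sign to the 3 called among the 36. Dna2 lost its call without any 1 of 5 libraries and Timeless without any 1 of 7 (adjusted p = 0.0599 to 0.0862), and all 3 lost it when the compared groups were fitted alone. Without tau, 5 of the 38 were higher in R47H/+ than in Trem2+/+ cells, against 8.22% of all genes. By edgeR 0 were lower, against 6.83% (4 at an unadjusted p under 0.05, 1 by DESeq2). Among the 5 were Timeless (1.67, adjusted p = 0.000174, edgeR), Dna2 (0.785, adjusted p = 0.00137) and Rfc1 (0.49, adjusted p = 0.00246). These 3 calls too were lost with the compared groups fitted alone. Timeless, a fork protection gene, rose with tau in Trem2+/+ (log2 3.09), in R47H/+ (1.82) and under MK-2206 (2.44). Of 20 genes of S phase control tested, 6 rose with tau in R47H/+ cells, the 3 with the smallest adjusted p being Asf1b (0.91), Rbl1 (0.82) and Brca1 (1.04), and 4 rose in Trem2+/+ cells. In these same tau comparisons, 5 and 4 of 16 mitosis genes rose, against the same 15% and 14.4% of all genes. Tpx2, a spindle gene, changed by 2.65 in R47H/+ and 1.62 in Trem2+/+ cells (interaction 1.03, adjusted p = 0.00575, edgeR). With MK-2206 under tau, 1 of the 16 fell by edgeR, against 1.4% of all genes: Top2a (-0.996), the topoisomerase that untangles replicated DNA, whose level was 11.3 ± 1.98 CPM without and 5.67 ± 0.416 with the inhibitor. Of the 16, 14 were negative, with a median of -0.84. At an unadjusted p under 0.05, 8 were lower and 0 higher (the share of all genes was not counted), and DESeq2 called 3 lower. Ranges lay wholly below for 9, against 14.1% of all genes.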

How the data were processed

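Gene expression was measured by RNA sequencing (paired reads of 150 bases) in 18 libraries of primary mouse microglia, 6 groups of 3. Per the submitters' processing notes, the authors used STAR, featureCounts and DESeq2 with GRCm38 (mm10); versions, and whether counting used strand, are not given in the sources used here. The authors deposited whole-number read counts for each gene without normalization. Coordinates and a gene length in base pairs stand in other columns of the deposited table. GENCODE M21 held 54495 of the identifiers, 98.3% of them at identical coordinates. The deposited length matched the exon union for 35 of the 36 genes (not Pola2). Replicates differed by more than counting error.

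The analysis used edgeR 4.0.16 and limma 3.58.1 in R 4.3.3. Genes were kept by filterByExpr (13267 tested) and libraries scaled by TMM. All 18 libraries entered a single quasi-likelihood model of the 6 groups (12 residual degrees of freedom). From it, 7 pairwise differences and 2 interactions were tested two-sided, adjusted by Benjamini-Hochberg over all tested genes, and called at an adjusted p under 0.05. Adjusted p-values come from this edgeR test unless another is named. Shares of all genes at an unadjusted p under 0.05 were not counted, so counts at that threshold stand without a background. The script was tested on simulated data. CPM are TMM-scaled, with the SD of 3 libraries; RPKM divide CPM by the deposited length in kilobases. No exact permutation test is given, since 3 libraries against 3 reach 0.1 at the lowest. Depth limits the precision of genes with few counts.

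Replicate numbers were checked for pairing: 21 correlations of deviations between same-numbered libraries lay between -0.14 and 0.20, and in 0 of 7 comparisons were all 3 over 0.1, so numbers were not used as a block in the main model.

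The genes and lists were chosen with earlier results of these data known. All 36 genes could be named; values per library were given for the 3 with the smallest p for any difference among groups in each role, and for any called in an interaction. Up to 3 genes of each further list were named per comparison, by smallest adjusted p among those called; some genes within this rule are not given. As alternatives, libraries were scaled by RLE, the count filter was dropped, DESeq2 1.42.0 was run, only the compared groups were fitted, replicate number was added as a block, and single libraries were left out in turn. After seeing the data, a further pair was added: removing both length-shifted libraries, and offsetting each library by a lowess curve on gene length (span 0.3). Promoter windows are those of RefSeq on GRCm38.p6.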

Additional observations from a re-analysis of the deposited data

Results flagged for a closer look

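The response to tau differed between the genotypes for 3 of the 36 genes in the interaction of genotype and tau, tested by edgeR's quasi-likelihood test, Benjamini-Hochberg adjusted. For Gins1 the response to tau was larger in R47H/+ than in Trem2+/+ cells by 1.68 on the log2 scale (adjusted p = 0.0131). For Pcna the genotypes differed by 1.01 (adjusted p = 0.0356), with Trem2+/+ replicate 3 the highest of the 18 libraries at 334.6 CPM. For Chaf1b they differed by 0.86 (adjusted p = 0.0403). Over the alternatives, adjusted p ran from 0.000837 to 0.0586 for Gins1, 0.00191 to 0.133 for Pcna and 0.00904 to 0.128 for Chaf1b. No explanation was tested.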

How the results depend on the processing

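Of 54 calls among the 36 genes, 18 held under every alternative run, 36 were lost under at least 1 and 0 changed sign; of 82 calls of other named genes, 54 held. The count of genes called was within 1.5 times the reported 14 under every alternative for tau in R47H/+ cells (11 to 14 without 1 library). For R47H/+ against Trem2+/+ without tau (3 reported), it was 5 by DESeq2, 0 with the compared groups fitted alone, 5 without both length-shifted libraries and 1 to 6 without 1 library. For tau in Trem2+/+ cells (5) it was 1 with the groups alone and 2 to 5 without 1 library. For R47H/+ against Trem2+/+ with tau (7), it was 11 by DESeq2, 11 without both and 1 to 7 without 1 library. For MK-2206 without tau (2), it was 4 with the groups alone, 5 without both and 0 to 2 without 1 library. For MK-2206 with tau (11), it was 7 with RLE scaling, 5 with the groups alone, 5 without the count filter and 2 to 6 without 1 library. Over all genes, calls there went from 403 of 13267 to 386 with RLE scaling and to 236 of 26811 without the filter. For tau under MK-2206 (9), it was 16 with the groups alone, 17 without both and 6 to 10 without 1 library. For the interaction of genotype and tau (3), it was 6 by DESeq2, 0 with the groups alone, 7 without both and 1 to 6 without 1 library. For that of MK-2206 and tau (0), it was 1 by DESeq2, 1 with the groups alone, 2 without both and 0 without any 1 library. With the replicate number as a block, the counts were 1, 4, 14, 7, 2, 7, 9, 1 and 0 in the order R47H/+ without tau, tau in Trem2+/+, tau in R47H/+, R47H/+ with tau, MK-2206 without and with tau, tau under MK-2206, and both interactions. The pairing check gave no reason to prefer the block. In that order, calls over all 13267 genes were 1997, 3519, 3667, 1260, 338, 403, 3393, 713 and 50 as reported. They were 1725, 3187, 3346, 1043, 257, 249, 3203, 598 and 21 with the block. With the groups alone they were 466, 1284, 3885, 1156, 2200, 215, 6283, 352 and 182. DESeq2 called 2586, 4149, 4060, 1745, 583, 753, 3797, 1194 and 220 of 13001 or 13259 genes. Rfc2, not called for tau in Trem2+/+ cells, changed sign with the gene length offset (-0.0105), and ran from -0.0616 to 0.463 without 1 library, lowest without Trem2+/+ replicate 1. Without 1 library, calls over all 13267 genes ran from 1301 to 3013, 2627 to 4184, 2703 to 3379, 650 to 1054, 141 to 199, 152 to 255, 2705 to 2921, 470 to 1602 and 9 to 43, in the order given for the block. The causes were not tested. Few counts limit Fen1, Orc1, Cdc6, Pole and Rrm2.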

Other observations

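Of 16 further genes of nucleotide supply, 4 rose and 0 fell with tau in Trem2+/+ cells by edgeR (2 lower at an unadjusted p under 0.05, 1 by DESeq2), against 14.4% and 12.1% of all genes tested, and 3 rose and 1 fell in R47H/+ cells, against 15% and 12.6%. Without tau, 4 were higher and 1 lower in R47H/+ than in Trem2+/+ cells, against 8.22% and 6.83%. With MK-2206, 1 of the 16 fell without tau and 1 with it, against 1.36% and 1.4%. Samhd1, which breaks down deoxynucleotides, stood at 311.2 ± 22.6 CPM (SD, n = 3) in Trem2+/+ cells and 763.8 ± 8.18 in R47H/+ cells (log2 difference 1.29, adjusted p = 1.97e-08, edgeR). With tau it was 1235 ± 22.8 and 1378 ± 50.4 CPM, so the response was smaller in R47H/+ cells (interaction -1.14, adjusted p = 2.12e-05). Dck, the kinase that salvages deoxycytidine, was at 53.4 ± 7.03 CPM in Trem2+/+ and 145.8 ± 10.3 in R47H/+ cells, and at 240.6 ± 9.36 and 259.0 ± 29.4 with tau. For both genes the interaction was negative, while it was positive for Gins1, Pcna and Chaf1b.

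Of 11 G1 regulators, 3 rose and 2 fell with tau in Trem2+/+ cells, against 14.4% and 12.1% of all genes tested. In R47H/+ cells 4 rose and 1 fell with tau, against 15% and 12.6%. With MK-2206 1 of the 11 fell without tau, against 1.36% of all genes, and 1 rose with tau, against 1.64%. Ccnd1, the cyclin D that drives G1, fell with MK-2206 in R47H/+ cells without tau by 2.15 on the log2 scale (adjusted p = 0.00594, edgeR), from 58.7 ± 3.01 to 13.2 ± 2.37 CPM. With tau its change of -1.24 ± 0.368 (SE) was not called (adjusted p = 0.0895), with 95.1 ± 22.3 CPM without the inhibitor and 40.3 ± 1.36 with it. Ccnd2, another cyclin D, rose with tau by 2.14 in Trem2+/+, 2.73 in R47H/+ and 2.52 under MK-2206, to 13.1 ± 1.26, 56.1 ± 16.3 and 32.9 ± 1.73 CPM. Mki67, the proliferation marker, was at 17.97 ± 4.32 CPM in Trem2+/+ with tau, 18.4 ± 3.2 in R47H/+ with tau and 17.6 ± 1.07 with MK-2206 and tau, against 8.71 ± 3.14, 9.16 ± 0.773 and 6.59 ± 1.08 without tau.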
